A study of Danio rerio with 9 samples.

Results

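Keratinocyte and epidermis genes were followed across 9 zebrafish melanomas. The set was a list of 38 gene symbols: keratins, the proteins of desmosomes, adherens and tight junctions, the plakins, calcium-binding and secreted proteins of the outer skin, and the basal-layer transcription factor tp63. Of these, 36 were found among the 30649 named rows of the count tables, and krt91 and evplb had no row under those symbols. A further 6 (krt92, krt1-c5, krtt1c19e, cyt1, cyt1l and lgals2b) had too few reads for the test between groups, which left 30 tested members. The rule for membership was the symbol itself, but the list was drawn up with earlier results of these data known.

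All tumours arose in fish of the genotype p53-/-; mitfa:BRAFV600E; Na-/-, which lack p53 and, in the nacre background (Na-/-), melanocytes, and carry human BRAF V600E under the mitfa promoter. As embryos they had received a MiniCoopR vector, which gives back mitfa and with it the melanocytes, together with a gene of interest. In 5 tumours (R157 to R161) that gene was the R860Q mutant of CDK13, a kinase of the transcription machinery, and in 4 control tumours (R162 to R165) it was EGFP, with CDK13 labelled wild-type. A vector with wild-type CDK13 was not among the groups, and injected fish are mosaic for the vector. Whether 2 tumours could share a fish is not stated, and the p-values therefore cover the spread between these 9 samples and no more.

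Fish skin is a living, stratified epithelium. Its basal keratinocytes depend on tp63 and sit on the basement membrane, and its superficial keratinocytes carry actin ridges, tight junctions and mucus. Keratins pair into filaments that are anchored at desmosomes, and the plakins link filaments to the cell border. Melanomas of the skin lie against this epithelium. Some genes of the list, cdh1 and krt8 among them, are also known from cells other than keratinocytes. In dissected tumours, fewer cells of a type and less RNA per cell cannot be told apart.

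Each tumour gave 1 library, with 7252950 to 11150732 counts in R860Q and 5518472 to 15120176 in EGFP tumours. The values below are normalised CPM (counts scaled to library size by TMM). They are not divided by gene length, so levels are compared between tumours and never between genes. The vector's own row, hCDK13, held 16.2 to 751 CPM in R860Q tumours and 0 to 0.489 in EGFP tumours, as the labels say. The row named 5_8S_rRNA was at 32.5 to 83.5 CPM in all R860Q tumours and EGFP R162, at 6.11 in EGFP R164, and listed at 0 in EGFP R163 and R165. The 3 tumours low in this row are all EGFP, and EGFP R162 alone of its group lay inside the R860Q range. A split of the tumours along this row therefore overlaps the group in most tumours, and cannot be fully told apart from it. The labels name no batch, and whether this split is technical is not stated. The melanocyte list had 14 of 14 genes in the files, with summed levels of 3047 to 15771 CPM in R860Q and 6309 to 13190 in EGFP tumours.

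Epidermal genes varied widely from tumour to tumour within each group, and none passed the test between the groups. EGFP R165 held the highest level of 23 of the 30 tested members (76.7%), while it was the highest tumour for 15.0% of all 15169 tested genes. EGFP R162 held the lowest level of 16 members (53.3%), against 19.0% of all genes. Ranked by the median rank of the members, the tumours ran from EGFP R165 (rank 1) over R860Q R159 (2), R860Q R161 (3), EGFP R163 (4), R860Q R158 (5), EGFP R164 (6), R860Q R160 (7) and R860Q R157 (8) to EGFP R162 (9). The tumours of both groups were thus interleaved, with an EGFP tumour at each end. The summed level of the 36 members had another order, since krt8 and icn make up much of it: it was 3657, 9235, 12980, 4015 and 11566 CPM in R860Q tumours R157 to R161 and 4077, 5576, 4467 and 9167 CPM in EGFP tumours R162 to R165. By the sum, R860Q R159 was highest and R860Q R157 lowest. Without krt8 and icn the sum was 5414 CPM in EGFP R165, 3520 in R860Q R159 and 993 in EGFP R162, which were again the highest, the next and the lowest. For 17 of the 30 members (56.7%) the EGFP range enclosed the whole R860Q range, against 23.4% of all tested genes. The median range over a group's tumours was 3.12 log2 units in EGFP and 1.81 in R860Q tumours for the members, and 1.28 and 1.22 for all tested genes. These shares describe the tumours, and both tumours were singled out after their values were seen.

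**Figure D1:**
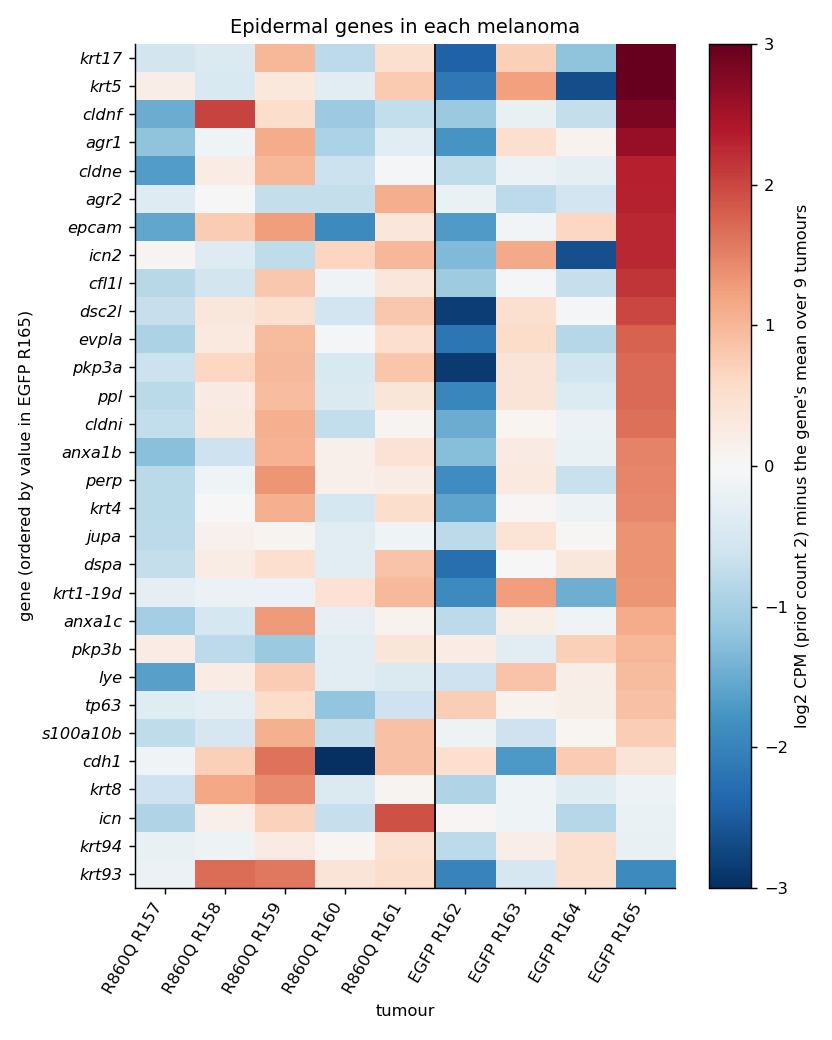
Each cell is a gene's log2 CPM (prior count 2) in a tumour minus its mean over the 9 tumours, for the 30 tested members (rows) and 9 tumours (columns, R860Q left of the line, EGFP right). Most rows are darkest red in EGFP R165 and blue in EGFP R162. The rows of krt8, icn, krt94, krt93 and cdh1 at the bottom are not darkest red in EGFP R165, though krt8, krt94 and krt93 are lowest in EGFP R162.

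EGFP R165 was also the most deeply sequenced library, which CPM adjusts for. Other skin and stromal genes were high in the same tumour. The 16 genes of dermal fibroblasts and scale summed to 1459 CPM in EGFP R165 and to between 219 and 695 in the other 8 tumours (11 of 13 tested genes highest in EGFP R165, and the bone gene bglap at 0 in all tumours). The 13 macrophage genes summed to 2860.5 CPM there and to between 652 and 1742 elsewhere (7 of 13 highest in EGFP R165, none at 0 there). The part of these cells, of depth or of the 5_8S_rRNA row in the epidermal values was not tested.

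The keratins listed as basal, krt5 and krtt1c19e, spread widely over the EGFP tumours, and tp63 did not. The transcription factor tp63, needed for the basal layer, was at 2.76, 2.90, 5.39, 1.45 and 2.27 CPM in R860Q tumours R157 to R161 and at 6.11, 3.87, 4.07 and 6.78 CPM in EGFP tumours R162 to R165. EGFP R162, the lowest tumour for most members, was the next highest for tp63 after EGFP R165, and only R860Q R159 overlapped the EGFP range, the other 4 R860Q tumours lying below it. It averaged 2.96 ± 1.47 CPM over the R860Q and 5.21 ± 1.46 over the EGFP tumours (± SD, n = 5 and 4). The log2 fold change, -0.82 ± 0.41 (SE), did not pass edgeR's quasi-likelihood test (Benjamini-Hochberg adjusted p = 0.855). The tp63 row rests on 352 reads over all tumours.

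The keratin krt5, whose mammalian counterpart marks the basal layer, was at 81.3, 51.5, 88.2, 56.6 and 123 CPM in R860Q tumours R157 to R161 and 15.9, 167, 11.1 and 585 CPM in EGFP tumours R162 to R165, the order kept from here on. Its EGFP values spread 52.9-fold and its R860Q values 2.38-fold, and the R860Q tumours lay inside the EGFP range. The log2 fold change was -1.28 ± 0.94 (SE, edgeR adjusted p = 0.938) and 0.30 ± 0.80 without EGFP R165. The zebrafish basal keratin krtt1c19e was nearly confined to EGFP R165 among these libraries, which held 322 of its 333 reads (17.6 CPM). EGFP R163 held 7 reads (0.577 CPM), R860Q R158, R159 and R160 held 1, 2 and 1, and the other 4 tumours none. A count of 0 allows up to 0.224 CPM in R860Q R157 and up to 0.734 CPM in EGFP R162 (3 counts, counting error only), and EGFP R165 stood far above these limits.

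Superficial keratins were likewise highest in EGFP R165. The keratin krt4, whose promoter is used to mark superficial keratinocytes, was at 129, 226, 478, 157.8 and 326 CPM in R860Q tumours R157 to R161 and at 76.1, 231, 204 and 613 in EGFP tumours R162 to R165. R860Q R159 and EGFP R165 were high and EGFP R162 low. The log2 fold change was -0.09 ± 0.57 (SE, edgeR adjusted p = 0.997), or 0.62 ± 0.53 without EGFP R165. The keratin krt17 reached 1322 CPM in EGFP R165, against 26.2, 233 and 60.8 in the other EGFP tumours and 95.8, 105, 281, 82.3 and 197 in R860Q tumours R157 to R161. It thus had a 50.5-fold range among EGFP and a 3.41-fold range among R860Q tumours.

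In the RefSeq table for GRCz12tu, another build than that of the counts, krt17 lies on chromosome 19. Along it krt1-19d, krtt1c19e, krt92, cyt1l, cyt1, krt17 and krt91 follow each other with no other listed gene between them. Their distances are not given here. Over the 9 tumours the depth behind these rows was 33714 reads for krt17, 1021 for krt1-19d, 11 for krt92, 4 for cyt1l and 2 for cyt1. The embryonic skin keratin cyt1 had both of its reads in EGFP R165. Near-identical copies can share reads. How such reads were counted was not given, and the low rows are therefore uncertain. The levels of krt1-19d ranged from 1.96 CPM in EGFP R162 to 20.3 in EGFP R165. The keratin krt1-c5, on chromosome 5, ranged from 0.245 in EGFP R162 to 4.05 in EGFP R165.

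Other keratins behaved differently. The keratin krt8, a filament protein of simple epithelia in mammals, was at 1650.4, 5661, 6771, 1878 and 2698 CPM in R860Q and 1361, 2332, 1969 and 2294 CPM in EGFP tumours. R860Q R158 and R159 were high, EGFP R165 was inside the range of the others, and the groups overlapped. Its log2 fold change was 0.91 ± 0.51 (SE, edgeR adjusted p = 0.895), and -0.01 in the 5 tumours with least muscle RNA, which leave out both of those R860Q tumours. RefSeq lists krt8 as an older symbol of krt4, and the tables hold a row for each.

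The keratin krt93 had the smallest p-value of the 30 members, and its order was not that of the other epidermal genes. It was at 1.42, 5.60, 5.25, 2.18 and 2.42 CPM in R860Q tumours R157 to R161 and at 0.245, 1.07, 2.33 and 0.273 in EGFP tumours R162 to R165, with EGFP R165 next to lowest. EGFP R164 lay inside the R860Q range, so the groups overlapped. The log2 fold change was 1.77 ± 0.71 (SE, unadjusted p = 0.0305, edgeR adjusted p = 0.765), on 176 reads in all. It was 0.69 without the 4 tumours of most muscle RNA, and between 1.41 (without EGFP R165) and 2.57 (without EGFP R164) with 1 tumour left out. The keratin krt94 was the steadiest keratin tested, between 14.9 CPM in EGFP R162 and 36.2 in EGFP R164, with a log2 fold change of 0.11 ± 0.29 (SE).

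**Figure D2:**
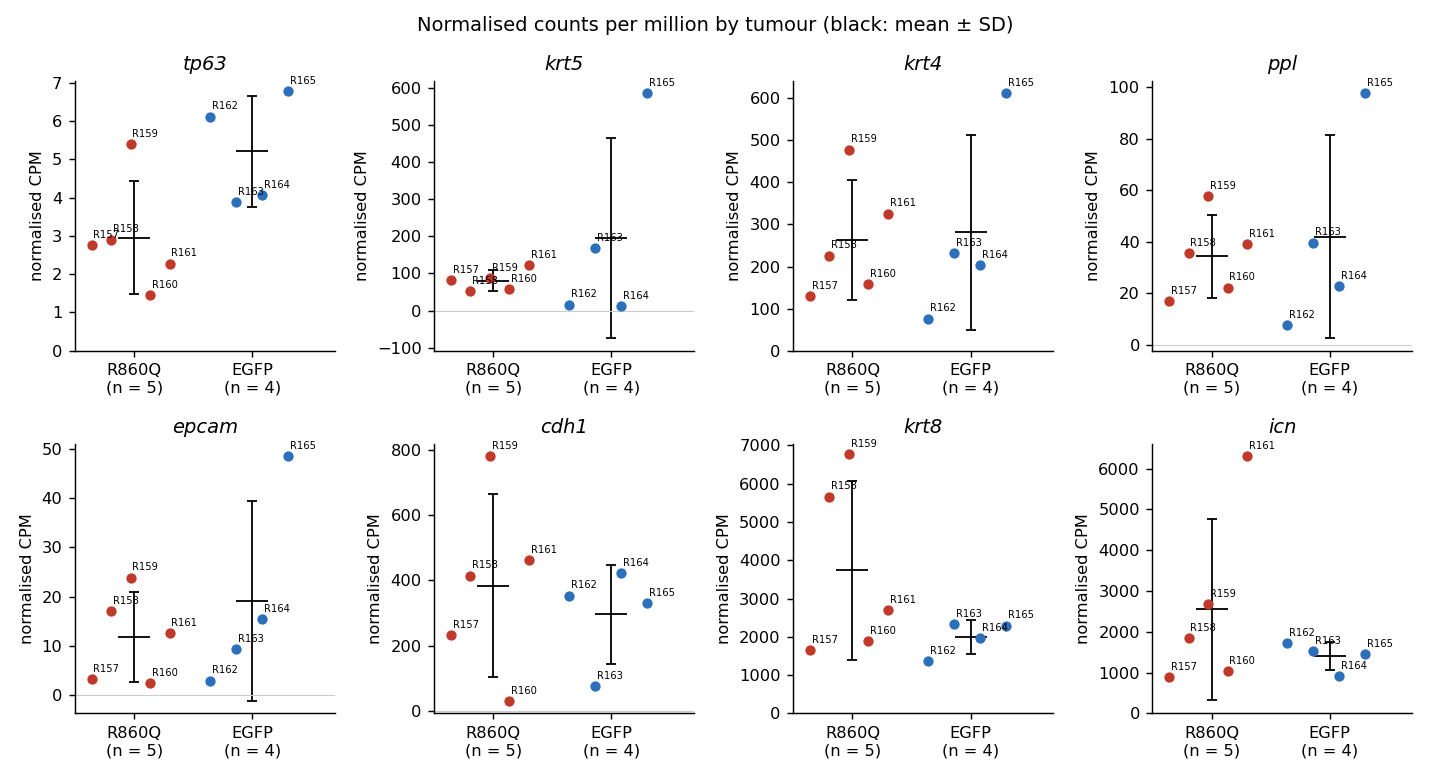
Normalised CPM of 8 members in each tumour (points, R860Q red and EGFP blue, labelled by replicate number), with the mean and SD of each group in black. EGFP R165 is highest for krt5, ppl and epcam, R860Q R159 leads for cdh1 and krt8, and R860Q R161 leads for icn at 6313 CPM.

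Within a tumour, the ratio of a superficial to a basal gene does not depend on how much epidermis the piece held, if both come from the epidermis. The log2 ratio of krt4 to tp63 was 5.44, 6.18, 6.41, 6.57 and 7.04 in R860Q tumours R157 to R161 and 3.59, 5.82, 5.58 and 6.45 in EGFP tumours R162 to R165. EGFP R162 was low and the other 8 tumours lay between 5.44 and 7.04. It averaged 6.33 ± 0.58 over the R860Q and 5.36 ± 1.24 over the EGFP tumours (± SD, n = 5 and 4). By an exact permutation test (two-sided) p was 0.190, and 0.381 once adjusted over the 4 ratios tested.

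Set against krt5, taken as basal from its mammalian counterpart only, krt4 gave log2 ratios of 0.67, 2.13, 2.43, 1.48 and 1.41 in the R860Q tumours and 2.24, 0.47, 4.18 and 0.07 in the EGFP tumours. EGFP R164 was high, with 11.1 CPM of krt5 and 204 CPM of krt4, and EGFP R165 was lowest. The difference between groups was -0.12 log2 units (exact two-sided permutation p = 0.873, adjusted p = 0.873). The log2 ratio of krt4 to krtt1c19e was 5.1 in EGFP R165 and between 8.20 and 10.59 in the other 8 tumours, where the prior count sets much of the value. Its group difference was 1.68 and that of krtt1c19e to tp63 was -0.71 (exact two-sided permutation p = 0.127 and 0.698, adjusted p = 0.381 and 0.873). In R860Q R157 and R161 and EGFP R162 and R164, krtt1c19e had 0 reads. Both ratios there follow only the level of krt4 or tp63, so these tests cannot compare the layers apart from the amount of epidermis. With 5 against 4 tumours the smallest possible two-sided p is 0.0159, and no ratio passed.

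**Figure D3:**
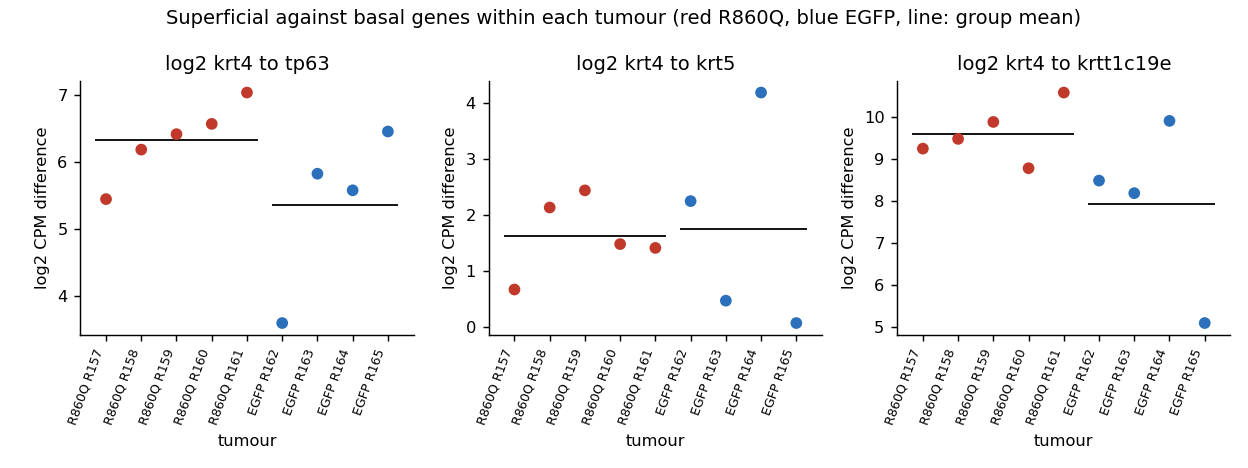
Log2 CPM of krt4 minus that of tp63, krt5 or krtt1c19e in each tumour (points, R860Q red, EGFP blue) with the group mean as a line. EGFP R162 is lowest for krt4 to tp63 at 3.59, EGFP R164 highest for krt4 to krt5 at 4.18, and EGFP R165 lowest for krt4 to krtt1c19e at 5.1.

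The junction genes were highest in EGFP R165 in 10 of 11 cases, cdh1 being the exception. The adhesion molecule epcam was at 3.21, 17.0, 23.9, 2.47 and 12.7 CPM in R860Q and 2.93, 9.40, 15.4 and 48.6 CPM in EGFP tumours. R860Q R157 and R160 and EGFP R162 were low, and the groups overlapped (log2 fold change -0.71 ± 0.81 SE, edgeR adjusted p = 0.949). E-cadherin, cdh1, the adherens junction protein that keratinocytes share with melanocytes, was at 232, 415, 781, 30.2 and 462 CPM in R860Q and 354, 76.4, 423 and 330.4 CPM in EGFP tumours. R860Q R160 and EGFP R163 were low and R860Q R159 high. EGFP R162, with 2.93 CPM of epcam, held 354 CPM of cdh1, more than EGFP R165. The log2 fold change of cdh1 was 0.38 ± 0.74 (SE, edgeR adjusted p = 0.982).

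Of the desmosome genes, desmoplakin dspa, which ties keratin filaments to the junction, was at 35.6, 69.2, 83.5, 47.1 and 107 CPM in R860Q and 12.2, 59.8, 75.4 and 151 CPM in EGFP tumours. EGFP R162 was low, and the R860Q tumours lay inside the EGFP range. The desmosomal membrane protein perp was at 114, 180.3, 499, 219.9 and 232 CPM in R860Q tumours and 54.5, 242, 124 and 544 CPM in EGFP tumours, with R860Q R159 close to EGFP R165. Their log2 fold changes were -0.13 ± 0.57 and 0.05 ± 0.62 (SE, edgeR adjusted p = 0.993 and 0.998). Plakoglobin, jupa, which joins desmosomal cadherins to desmoplakin, was at 41.0, 76.9, 74.7, 56.9 and 64.7 CPM in R860Q and 41.1, 94.8, 73.1 and 181 CPM in EGFP tumours (log2 fold change -0.64 ± 0.39 SE, edgeR adjusted p = 0.917). The groups overlapped and EGFP R165 stood well above the others.

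The desmocollin dsc2l ran from 4.65 CPM in EGFP R162 to 138 in EGFP R165, and plakophilin pkp3a from 4.89 to 121 in the same tumours. The other plakophilin gene, pkp3b, differed less: it was at 4.40, 2.07, 1.60, 2.91 and 4.83 CPM in R860Q and 4.40, 2.97, 6.26 and 7.65 CPM in EGFP tumours (log2 fold change -0.75 ± 0.43 SE, edgeR adjusted p = 0.904). R860Q R158 and R159 were low there, and EGFP R162 was not. Of the tight junction claudins, cldne reached 89.7 CPM in EGFP R165 and at most 35.0 elsewhere, and cldni 105 CPM and at most 70.1. The claudin cldnf was at 29.2 CPM in EGFP R165 and 16.8 in R860Q R158, and between 1.27 and 5.83 in the other tumours.

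The plakins ppl and evpla varied together over the tumours. Periplakin, ppl, a linker of keratin filaments to the cell cortex, was at 17.0, 35.7, 57.7, 22.2 and 39.0 CPM in R860Q and 7.58, 39.6, 22.7 and 97.6 CPM in EGFP tumours, and its partner envoplakin, evpla, at 13.3, 31.9, 50.4, 25.0 and 36.8 and 5.63, 38.1, 14.4 and 89.6 CPM. Both were lowest in EGFP R162 and highest in EGFP R165, with R860Q R159 next. The log2 fold changes were -0.30 ± 0.61 and -0.24 ± 0.67 (SE, edgeR adjusted p = 0.983 and 0.986). Over the 9 tumours the log2 ratio of evpla to ppl had an SD of 0.24, that of krt4 to ppl 0.26, of cldni 0.27, of perp 0.32, of pkp3a 0.40, of dspa 0.41, of dsc2l 0.42 and of anxa1b 0.48. These 8 of 29 members had an SD below 0.5, as did 68 tested genes (0.448%). The median SD over all tested genes was 1.20. The SD was 1.65 for cdh1 and 1.51 for krt93, larger than in 88.5% and 81.6% of tested genes. Nearer the median were pkp3b at 1.29, icn2 at 1.22, icn and tp63 at 1.15, and krt5 at 1.1. The ratios share ppl and each tumour's library, ppl was picked as the yardstick after the values were seen, and they are given as a description.

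Among calcium-binding and secreted proteins, the ictacalcins icn and icn2, which belong to the S100 family, parted. The levels of icn were 891, 1855, 2689, 1029 and 6313 CPM in R860Q and 1723, 1535, 922 and 1458 CPM in EGFP tumours, high in R860Q R161 (log2 fold change 0.86 ± 0.59 SE, edgeR adjusted p = 0.933, or 0.20 without R860Q R161). The ictacalcin icn2 was at 10.7, 7.67, 5.83, 15.8 and 20.5 CPM in R860Q and 3.91, 22.3, 1.46 and 49.0 CPM in EGFP tumours, high in EGFP R165 and low in EGFP R164, as krt5 was (log2 fold change -0.68 ± 0.81 SE, edgeR adjusted p = 0.951). The groups overlapped for both. Another S100 gene, s100a10b, lay between 198 CPM in R860Q R157 and 696 in R860Q R159.

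The annexin anxa1c, of a family of membrane-binding proteins, was at 0.597, 0.933, 3.79, 1.16 and 1.56 CPM in R860Q and 0.734, 1.65, 1.31 and 3.33 CPM in EGFP tumours, with R860Q R159 the highest (log2 fold change -0.21 ± 0.61 SE, edgeR adjusted p = 0.987). Its relative anxa1b ran from 1.96 CPM in EGFP R162 to 14.6 in EGFP R165. The anterior gradient gene agr2, a protein disulfide isomerase needed for mucus in mammals, was at 1.72, 2.28, 1.31, 1.31 and 5.12 CPM in R860Q and 1.96, 1.24, 1.46 and 12.1 CPM in EGFP tumours. R860Q R161 and EGFP R165 stood above the rest (log2 fold change -0.87 ± 0.74 SE, edgeR adjusted p = 0.939). The related agr1 was at 0.820, 1.97, 4.95, 1.02 and 1.71 CPM in R860Q and 0.489, 3.13, 2.33 and 14.3 CPM in EGFP tumours (log2 fold change -1.33 ± 0.81 SE, edgeR adjusted p = 0.917, and 0.01 without EGFP R165).

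Of the remaining members, the actin regulator cfl1l reached 230 CPM in EGFP R165 and at most 90.8 elsewhere (R860Q R159). The Ly6-family gene lye ran from 1.12 CPM in R860Q R157 to 7.76 in EGFP R165, close to 7.25 in EGFP R163. The galectin lgals2b had 26 reads in all, 11 of them in EGFP R165 and 7 in EGFP R164.

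The comparison of the groups asks whether epidermal genes differ in melanomas that carry the mutant kinase. At an edgeR adjusted p under 0.05, none of the 30 tested members was called in either direction (0 higher, 0 lower), and 0% of all 15169 genes were. The tested genes include the vector's own row hCDK13, at 16.2 to 751 CPM in R860Q and 0 to 0.489 CPM in EGFP tumours. This row did not pass edgeR (adjusted p = 0.303) or limma voom (adjusted p = 0.666), and passed DESeq2 (adjusted p = 9.01e-17). An absence of edgeR calls is therefore no sign that the groups are equal. Adjusted p-values of the members ran from 0.765 to 0.999. At an unadjusted p under 0.05 there was 1 member, krt93, on the higher side, against 6.14% of all tested genes (1.99% higher and 4.15% lower). DESeq2 called 0 members in either direction (0.132% of all genes higher and 0.316% lower), and limma voom called 0. In 0 members did the groups separate fully, against 1.43% of all tested genes. The members' median log2 fold change was -0.29, with 7 members above 0 and 23 below, and that of all genes -0.03.

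This direction turned when EGFP R165 was left out. The median of the members was then 0.43, with 26 members above 0 and 4 below, and 19 members changed sign. EGFP R165 was the highest tumour for 23 of the 30, so leaving it out raises most of these values by construction. It lay a median of 1.94 log2 units above the median of the other EGFP tumours for the members, and 0.01 for all tested genes. The same counts over all tested genes are not given here. The 4 that stayed on the lower side were tp63, jupa, lye and pkp3b. The 3 members of smallest p among those above 0, krt93, krt8 and icn, stood at 1.41 ± 0.71, 0.98 ± 0.58 and 0.87 ± 0.67 without it (SE). Leaving out EGFP R162, last by median rank, moved the median the other way, to -0.64, leaving out R860Q R159 moved it to -0.60, and leaving out EGFP R162 and R164 together to -1.0. Both fits without EGFP R162 cover 31 members rather than 30. The sign of the members' median thus rested on EGFP R165: with any 1 of the other 8 tumours left out it lay between -0.64 and -0.13. By limma voom with sample weights and all 9 tumours the median was -0.0033.

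**Figure D4:**
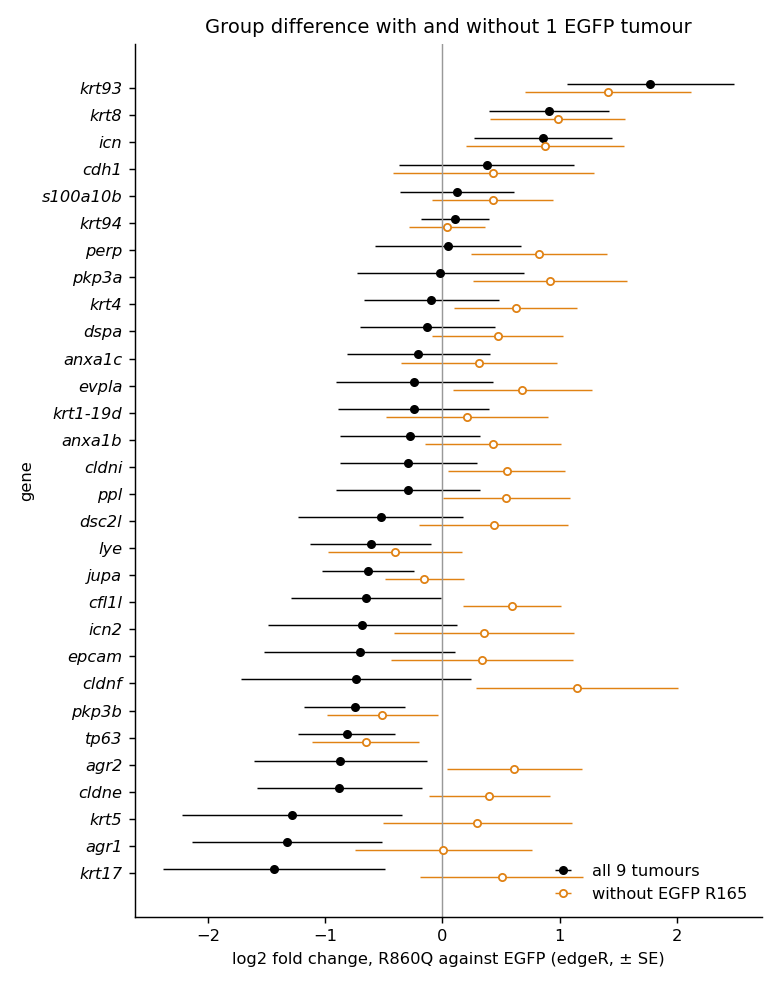
Log2 fold change of R860Q against EGFP tumours by edgeR (± SE) for each tested member with all 9 tumours (filled) and without EGFP R165 (open). Without that tumour 26 of 30 open points lie right of 0, against 7 filled ones.

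Other gene groups of the skin gave further values. Of 16 regulators of epidermal fate 14 were in the files and 9 tested, with a median log2 fold change of -0.40, 2 on the higher side and 0 called. Without EGFP R165 the median was 0.52, with 7 of 9 on the higher side. EGFP R165 was the highest tumour for 6 of the 9, and EGFP R162 the lowest for 4. With all tumours the 2 on the higher side were grhl2b and tfap2c, both highest in R860Q R159, and the other 7 were on the lower side. The grainyhead factor grhl2b averaged 23.9 ± 9.62 CPM over the R860Q and 9.75 ± 6.20 over the EGFP tumours (± SD, n = 5 and 4; log2 fold change 1.27 ± 0.63 SE, edgeR adjusted p = 0.848), and the AP-2 factor tfap2c had a log2 fold change of 0.76 ± 0.46 (SE). Of 23 tested genes of other junctions 0 were called, 4 were on the higher side and the median was -0.70, or 0.20 without EGFP R165 (15 of 22 fitted genes on the higher side). The claudin cldn7a averaged 3.48 ± 1.96 CPM over the R860Q and 0.657 ± 0.455 over the EGFP tumours (± SD, n = 5 and 4). Its log2 fold change was 2.44 ± 0.67 (SE, edgeR adjusted p = 0.680, DESeq2 adjusted p = 0.0627). The cldn7a row rests on 171 reads, with 5, 6, 1 and 14 in EGFP R162 to R165 and 6 in R860Q R161. The groups overlapped, with R860Q R161 at 0.853 CPM and EGFP R162 at 1.22 CPM. The other plakoglobin gene, jupb, had a log2 fold change of -1.48 ± 0.54 (SE), with 2.73 CPM in EGFP R165, the tumour where jupa was highest. For 16 of these 23 genes EGFP R165 was the highest tumour.

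All 9 tested genes of epidermal proteases, their inhibitors and envelope enzymes were on the lower side (median -0.81, 0 called), and all 9 were highest in EGFP R165. Without that tumour the median was 0.16 over 8 fitted genes (6 on the higher side and 2 on the lower). The protease inhibitor spint1b had a log2 fold change of -0.94 ± 0.44 and the lipoxygenase alox12 one of -0.81 ± 0.48 (SE, edgeR adjusted p = 0.818 and 0.905). Of 9 tested genes of basement membrane adhesion, only 2 were highest in EGFP R165, the median was -0.14 and 0 were called. Without that tumour the median was 0.28 over 10 fitted genes. The 17 genes of this list in the files summed to 312 CPM in R860Q R159, 264 in EGFP R165 and 68.7 in EGFP R162. These were the highest, the next and the lowest sums. The hemidesmosome integrin itgb4 had a log2 fold change of 1.01 ± 0.56 (SE, edgeR adjusted p = 0.893).

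Markers of other skin cells were sparse. Of 15 ionocyte genes, 3 were tested (median log2 fold change -0.36, 0 called), among them the proton pump subunit atp6v1aa (-0.44 ± 0.41) and the carbonic anhydrase ca2 (-0.36 ± 0.40), both widely expressed genes. All 15 ionocyte genes summed to 196 CPM in EGFP R165 and to between 58.5 and 135 CPM elsewhere. Most of that sum in EGFP R165 came from ca2 (115 CPM) and atp6v1aa (65.8 CPM). Of 8 mucous cell genes 4 were in the files and 1 tested, the gel-forming mucin muc5.2 (log2 fold change 0.39 ± 0.92 SE, edgeR adjusted p = 0.984). The mucous cell genes summed to 16.8 CPM in EGFP R165 and to between 1.75 and 7.23 CPM elsewhere. For the mesenchymal switch, in which epithelial cadherin gives way, 11 genes were tested, 6 of them on the higher side and 0 called, and the median was 0.11. The fibronectin fn1b had a log2 fold change of 1.04 ± 0.32 (SE, edgeR adjusted p = 0.680, DESeq2 adjusted p = 0.228). Its R860Q tumours, at 12.8 to 30.3 CPM, all lay above its EGFP tumours, at 5.79 to 11.7 CPM. The same held for 0.626% of all tested genes. N-cadherin, cdh2, averaged 10.7 ± 6.82 CPM over the R860Q and 25.0 ± 8.51 over the EGFP tumours (± SD, n = 5 and 4). Its log2 fold change was -1.22 ± 0.49 (SE, edgeR adjusted p = 0.765). The groups overlapped for cdh2, with R860Q R157 at 18.3 CPM and EGFP R163 at 14.8 CPM.

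Skeletal muscle and lymphocyte genes had other orders over the tumours. The 25 skeletal muscle genes summed to 27.9 to 5148 CPM in R860Q and 11.1 to 1338 CPM in EGFP tumours, high in R860Q R158, R159 and R160 and EGFP R162. These tumours held ranks 5, 2, 7 and 9 for the epidermal genes, and EGFP R165 held 19.8 CPM of muscle RNA. The 10 T and NK lymphocyte genes in the files summed to 404, 303 and 416 CPM in EGFP R162, R164 and R165, the tumours of epidermal rank 9, 6 and 1. In the other 6 tumours they summed to at most 41.2 CPM. The NK-lysin gene nkl.2 was called lower by DESeq2 (adjusted p = 2.01e-04) and not by edgeR (adjusted p = 0.469), and 0 genes of the muscle, dermal, macrophage and melanocyte lists were called by edgeR or DESeq2. Median log2 fold changes were 2.22 for 19 tested muscle genes (ttn.2 2.59 ± 1.47, pvalb3 3.48), -0.95 for 13 dermal (lum -1.37 ± 0.54, dcn -1.45 ± 0.60), -0.51 for 13 macrophage (c1qa -0.93 ± 0.43, c1qb -0.96 ± 0.47), -0.13 for 13 melanocyte (kita -0.90 ± 0.50, mitfa -0.40 ± 0.36) and -1.80 for 6 lymphocyte genes (nkl.2 -4.20 ± 0.90, nkl.4 -3.36 ± 1.01). The dermal median was -0.24 without EGFP R165, and the muscle median 7.17 without EGFP R162.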

How the data were processed

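The authors deposited 1 table of raw read counts per gene symbol for each of the 9 tumours. Bowtie and HTSeq, without versions, and the build GRCz10 (danRer10) are named per the submitters' processing notes. Per the labels' protocols, ribosomal RNA was removed, and libraries made by random priming with a NEBNext Ultra kit (15 min of fragmentation, 12 PCR cycles) were sequenced as 100-bp pairs. Whether counting used strand is not given, so reads of a gene and an antisense neighbour may be mixed. A line without name and count (1 in each file) was left out.

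Counts were normalised by TMM and compared with edgeR 4.0.16 (R 4.3.3; filterByExpr with minimum count 10 and minimum total 15; robust quasi-likelihood test; Benjamini-Hochberg over 15169 genes; adjusted p under 0.05). The SE is the absolute log2 fold change divided by the square root of F. The lowest TMM factor was 0.650 (EGFP R162) and the highest 1.25 (EGFP R164). For log2 CPM the prior count was 2. With 0 reads the limit is 3 counts, or 0.164 to 0.734 CPM, for counting error only, since reads had no molecular identifiers. Ratios were compared by exact two-sided permutation. DESeq2 1.42.0 and limma 3.58.1 (voom with sample weights) were alternatives.

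The members and lists were chosen with earlier results of these data known. Named in full were tp63, krt5, krtt1c19e, krt4, cyt1, epcam, cdh1, ppl, dspa, perp, icn2, anxa1c and agr2, the 4 members with the smallest p on each side, and of each other list the 2 genes with the smallest p, of which 1 is not reported here. All 38 symbols were matched in the RefSeq or gene name tables by symbol or synonym, which served for names and gene order only.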

Additional observations from a re-analysis of the deposited data

Results flagged for a closer look

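Among 68 groups of values (30 members and 4 ratios in each group), where chance gives about 1 in 20, 1 value stood apart from the rest of its group by the gap to its nearest neighbour. That is a smaller share than chance gives. By this rule 0 values were flagged with EGFP R165 as the highest. E-cadherin, cdh1, was at 6.26 log2 CPM in EGFP R163, while the other 3 EGFP tumours lay between 8.37 and 8.73. In CPM these were 76.4 against 330.4 to 423. In the same tumour epcam, at 9.40 CPM, was inside the range of its group. Among R860Q tumours cdh1 was lowest in R160, at 30.2 CPM.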

How the results depend on the processing

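No paired analysis was possible because no replicate number occurs in both groups. For the 17 named genes with a fit, 279 of 305 alternative values kept their direction and 26 changed sign, and none passed the threshold. The number of members called was 0 in each direction under every alternative run. Over all genes, DESeq2 called 20 higher and 48 lower, leaving out EGFP R162 and R164 gave 1 higher and 0 lower, and leaving out the 4 tumours with most muscle RNA (R860Q R158, R159 and R160 and EGFP R162) gave 1 higher and 0 lower. With 1 tumour left out at a time, between 0 and 0 genes were called higher and between 0 and 1 lower, the 1 without EGFP R165. The members' median log2 fold change ran from -0.64 to 0.43 over these fits, and was -0.61 with no filter, -0.91 without the muscle tumours and -0.0033 by limma voom. The members fitted differed between runs. With no filter all 36 were fitted, among them the 6 with too few reads for the main test, and without EGFP R162 there were 31. These medians are therefore not all of the same genes. By limma voom with sample weights, which gave EGFP R163, R162 and R165 the lowest weights (0.680, 0.687 and 0.696), log2 fold changes turned to 0.88 for krt5, 0.16 for krt4, -0.27 for cdh1, 0.061 for ppl, 0.094 for dspa and 0.42 for icn2, and the cause was not tested. For perp the value turned to -0.66 without EGFP R162 and R164 and to -0.80 without the muscle tumours, and for krt8 to -0.010 without the muscle tumours. Leaving out 1 tumour at a time, values that turned ran from -1.68 to 0.30 for krt5, -0.42 to 0.62 for krt4, -1.13 to 0.34 for epcam, -0.056 to 0.68 for cdh1, -0.64 to 0.54 for ppl, -0.48 to 0.47 for dspa, -0.37 to 0.82 for perp, -1.07 to 0.36 for icn2, -0.80 to 0.31 for anxa1c, -1.36 to 0.61 for agr2 and -1.92 to 0.0072 for agr1. Group differences of the log2 ratios ran from 0.38 to 1.33 for krt4 to tp63, -0.67 to 0.70 for krt4 to krt5, 0.73 to 2.34 for krt4 to krtt1c19e and -1.49 to 0.60 for krtt1c19e to tp63. Prior counts of 0.5 and 5 changed no direction and no call among the ratios. Rows with few reads, such as krtt1c19e, krt92, cyt1 and lgals2b, are limited by depth.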
